A study of Mus musculus with 8 samples.

Results

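Immediate early genes are switched on within minutes of a signal, without new protein synthesis, and their short-lived mRNAs and proteins then act on later genes and on the signal itself. The 10 genes described here were the transcription factor genes Egr1, Egr2 and Egr3, the nuclear receptor genes Nr4a1 and Nr4a2, Ier2, the mRNA decay genes Zfp36 and Btg2, and the MAP kinase phosphatase genes Dusp1 and Dusp2. They were chosen by name, with earlier results of these data known. All non-control probes whose accession belongs to these genes were taken, which gave 11 of 55681 probes and 10 of 20284 named genes. Of the 10 genes 9 passed the filter on dim probes, and Egr3 did not. The mean signal of 6 of the 10 genes was highest in wild-type Flt3+ granulocyte progenitors and lowest in wild-type Flt3- cells, with Irf8KO Flt3+ above Irf8KO Flt3- cells between them. Each step of that order passed the test for Egr1, Zfp36 and Btg2, while the step between the Irf8KO populations did not for Ier2 and Dusp1, nor that between genotypes in Flt3+ cells for Dusp2.

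RNA came from mouse bone marrow granulocyte progenitors (GPs), taken as primary cells and sorted by the cytokine receptor Flt3 into positive (Flt3+) and negative (Flt3-) fractions. The 4 groups were WT Flt3+ GPs, WT Flt3- GPs, Irf8KO Flt3+ GPs and Irf8KO Flt3- GPs, each with 2 one-colour arrays from separate experiments. WT stands for wild type, and Irf8KO for mice lacking Irf8, a transcription factor of myeloid cells. The sources used here do not give the allele, the age of the mice or the number of animals per sample. The p-values therefore reflect the spread between these arrays alone, and that spread may be technical.

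EGR1, EGR2 and EGR3 are zinc finger transcription factors that bind GC-rich sites, and in myeloid progenitors EGR1 and EGR2 are known for promoting macrophage over neutrophil genes. NR4A1 (Nur77) and NR4A2 (Nurr1) are nuclear receptors that act without a known natural ligand, and NR4A1 is known from non-classical monocytes and from negative selection of T cells. Such genes are commonly induced through the ERK kinases, which activate ternary complex factors of the ETS family beside serum response factor on the CArG box, and through CREB on the cAMP response element. ZFP36 (tristetraprolin) and BTG2 recruit the CCR4-NOT deadenylase to mRNAs, and DUSP1 and DUSP2 remove phosphate from MAP kinases, so these 4 belong to the arm that ends a response.

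The promoter stretches below are shown because they hold, in capitals, matches to the motifs of these regulators. Windows of 300 bases, from 250 before to 49 after a transcription start, were taken from RefSeq (mouse build GRCm38.p6) and matched 7 of the 10 genes, with 5 starts for Egr2 and 1 for each other gene. Egr1, Egr3 and Ier2 were not analysed here. Both strands were searched for the CArG box, the cAMP response element TGACGTCA, its shorter site TGACG, the EGR site GCGNGGGCG and the ETS core CCGGAA, and every full cAMP response element also counts as shorter sites. Sequences run 5′ to 3′ on the strand of the gene, and positions are counted from the start, negative upstream.
Zfp36, chr7:28379271-28379339, minus strand, positions -111 to -43: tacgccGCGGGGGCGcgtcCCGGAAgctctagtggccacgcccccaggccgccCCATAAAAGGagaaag
Egr2, the third start, chr10:67537793-67537822, plus strand, positions -76 to -47: cagtCCATATATGGgcagcgaCGTCAcggg
Dusp1, chr17:26508602-26508669, minus strand, positions -197 to -130: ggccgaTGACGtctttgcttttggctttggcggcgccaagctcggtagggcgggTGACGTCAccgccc
Btg2, chr1:134079272-134079327, minus strand, positions -172 to -117: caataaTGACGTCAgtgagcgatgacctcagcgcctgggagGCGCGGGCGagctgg
Nr4a1, chr15:101266771-101266816, plus strand, positions -75 to -30: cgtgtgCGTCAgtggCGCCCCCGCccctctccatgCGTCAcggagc
Nr4a2, chr2:57124063-57124132, minus strand, positions -129 to -60: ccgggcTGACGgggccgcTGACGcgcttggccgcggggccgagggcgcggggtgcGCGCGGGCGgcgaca
Dusp2, chr2:127336055-127336075, plus strand, positions -104 to -84: gaagccGCGGGGGCGggcacc

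In the Zfp36 stretch the capitals mark, in order, an EGR site at -105, an ETS core at -92 and a CArG box at -58. The Egr2 stretch holds a CArG box at -72 and a shorter site, read on the other strand, at -55. Of the 5 Egr2 windows 4 held a CArG box, but 3 of these overlap and share the box shown, so the 4 windows hold 2 distinct sites. Dusp1 held a shorter site at -191 and a full cAMP response element at -143, and Btg2 a full element at -166 and an EGR site at -131. Nr4a1 held an EGR site at -60 between shorter sites at -69 and -40, and Nr4a2 shorter sites at -123 and -111 and an EGR site at -74. Dusp2 held an EGR site at -98. These sites are those in the stretches shown, and the windows held others. Nr4a1 also had shorter sites at -233 and -213 and an ETS core at -125. Further shorter sites lay at -200 and -144 in Nr4a2, at 5 in Dusp2 and at -111 from the third Egr2 start. The second Egr2 window held ETS cores.

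By gene, the CArG box was found in 2 of the 7, the full cAMP response element in 2, the shorter site in 6, the EGR site in 5 and the ETS core in 3. By window, the counts were 5, 2, 8, 5 and 3 of the 11, in the same order. Among all 32851 RefSeq windows the shares with a match were 1.63%, 1.79%, 20.8%, 5.55% and 14.9%, again in that order. These shares are per window, so the counts by gene, where a match in any Egr2 window counts, are on another measure. The windows of the 11 member starts had a median GC content of 67.0%, against 52.7% in all windows, and several of these motifs are GC-rich. A match is a run of letters and no evidence of binding.

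**Figure D1:**
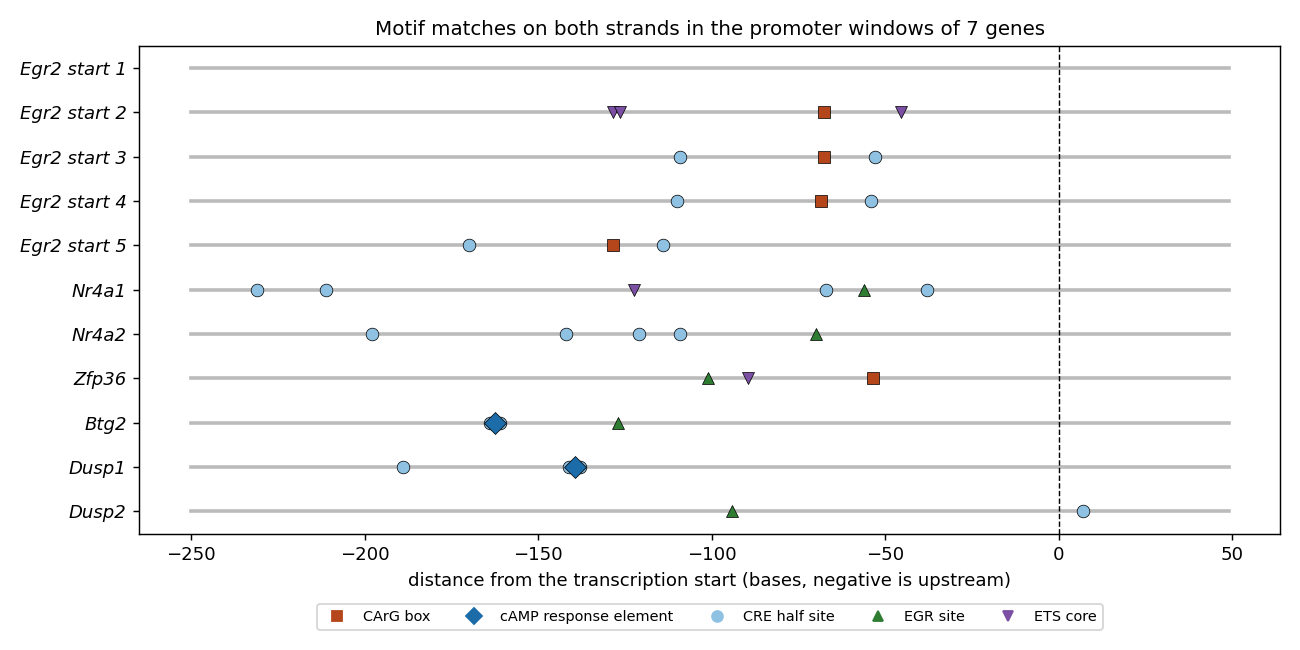
Motif matches in the 11 promoter windows of 7 genes. The x axis is the distance from the transcription start in bases, each grey line is 1 window, and each symbol is the centre of a match on either strand. CArG boxes lie in Zfp36 and in 4 of the 5 Egr2 windows, of which 3 share 1 genomic site, and full cAMP response elements in Btg2 and Dusp1.

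Signals are log2 values set against the 75th percentile of the same array, experiment 1 before experiment 2, and differences as log2 values with their standard error (SE). On the arrays 54.9 to 60.1% of spots lay well above background and none was saturated. Across genes the 2 arrays of a group correlated at 0.9958 to 0.9976, and their median SD was 0.039 to 0.07. The Irf8 probe gave more signal on Irf8KO than on wild-type arrays (0.84 in Flt3+, 0.72 in Flt3- GPs). The sources used here do not say which part of Irf8 was deleted, so this probe checks nothing, and each direction between genotypes rests on the labels. Flt3 followed the sort, by 4.54 between the wild-type and 3.60 between the Irf8KO populations. Flt3 was also higher in Irf8KO Flt3- than in WT Flt3- GPs (1.02, SE 0.038, adjusted p = 7.81e-05). Between genotypes in Flt3+ GPs it did not pass the test (0.08, adjusted p = 0.156). The genotype difference in Flt3+ minus that in Flt3- GPs was -0.94 (adjusted p = 0.000781). The Flt3- fractions thus differed in Flt3 mRNA between genotypes, and the part of this in the values below was not tested. All arrays lay on 1 slide, with genotype by row and population by column, so group and slide position cannot be told apart.

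Over all genes tested, 22.6% were called higher and 39.2% lower in WT Flt3+ than in WT Flt3- GPs. Irf8KO was higher for 16.5% and lower for 12.5% in Flt3+ GPs, and for 16.5% and 27.2% in Flt3- GPs. The genotype difference was higher in Flt3+ than in Flt3- GPs for 21.4% and lower for 9.46%. The granulocyte progenitor markers (Mpo, Elane, Prtn3, Ctsg, Ms4a3, Cebpe, Gfi1 and Prss57) were well above background on both arrays of every group, in 8 of 8 cases. All 8 were lower in WT Flt3+ than in WT Flt3- GPs. In Irf8KO Flt3+ GPs 7 were higher and 1 lower than in WT Flt3+ GPs. Their summed level, relative to the 75th percentile on a linear scale, was 679 to 761 in WT Flt3+, 2193 to 2327 in WT Flt3-, 1196 to 1208 in Irf8KO Flt3+ and 2534 to 2775 in Irf8KO Flt3- GPs. Eosinophil, basophil and mast cell markers summed to 11.3 to 12.0, 140.3 to 140.5, 6.31 to 6.64 and 71.0 in the same order, with 7 or 8 of 8 well above background in each group. Monocyte and macrophage markers summed to 76.4 to 79.5, 72.0 to 72.3, 137 to 141 and 144 to 145, with 6 of the 7 on the array well above background in each group. Stem and multipotent progenitor markers summed to 261 to 265, 154 to 160, 211 to 221 and 129 to 131, with 6 or 7 of 8 well above background. Of the 7 measured, 6 were higher and none lower in WT Flt3+ than in WT Flt3- GPs (median 0.99). In Flt3+ GPs 6 were lower in Irf8KO (median -0.76), and in Flt3- GPs 4 were lower and 1 higher. The genotype difference was lower in Flt3+ than in Flt3- GPs for 4 and higher for 1 (median -0.54). Megakaryocyte markers summed to 13.6 to 14.4, 7.83 to 7.88, 4.44 to 4.75 and 5.32 to 5.34, with 6 or 7 of 7 well above background. Megakaryocyte markers, like those of stem cells, moved with the 6 genes in part. Of the 7, 4 were higher and 1 lower in WT Flt3+ than in WT Flt3- GPs (median 0.80). In Irf8KO Flt3+ GPs 6 were lower than in WT Flt3+ GPs (median -1.42). The genotype difference was lower in Flt3+ than in Flt3- GPs for 5 (median -1.27). In Flt3- GPs 3 were lower and 1 higher in Irf8KO. Erythroid markers summed to 51.7 to 54.1, 23.4, 23.2 to 23.3 and 12.3 to 13.1, with 5 to 7 of 8 well above background. Of the 7 measured, 6 were lower and 1 higher in Irf8KO Flt3+ than in WT Flt3+ GPs (median -1.87) and 6 were lower in Irf8KO Flt3- than in WT Flt3- GPs (median -2.09). Mature neutrophil markers summed to 164 to 186, 169 to 173, 188 to 191 and 194 to 207, with 6 to 8 of 8 well above background, and 7 of the 8 were higher in Irf8KO GPs of either population (medians 1.79 in Flt3+ and 1.43 in Flt3-). Dendritic cell markers summed to 280 to 312, 213 to 226, 327 to 335 and 255 to 273. That list includes Flt3, the gene of the sort, so its population difference follows in part from the sort. B cell markers summed to 13.4 to 14.2, 12.8 to 13.3, 19.4 to 19.9 and 13.7 to 13.8. Of these 8, 4 to 7 per group were well above background. Among the 7 measured, 5 were higher and none lower in WT Flt3+ than in WT Flt3- GPs (median 1.07). The T and NK cell and the stroma and endothelium lists summed to 8.93 to 40.9. By group means of the summed level none of the 11 marker lists had the full order of groups that Egr1 had, though WT Flt3+ GPs were highest in the megakaryocyte, erythroid and stem cell lists. The dendritic cell and B cell lists had the order of groups that Nr4a1 had, with Irf8KO Flt3+ GPs highest and WT Flt3- GPs lowest. The part of these cell types in the values below was not tested, and in sorted bulk RNA fewer cells of a type and less RNA per cell cannot be told apart.

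**Figure D2:**
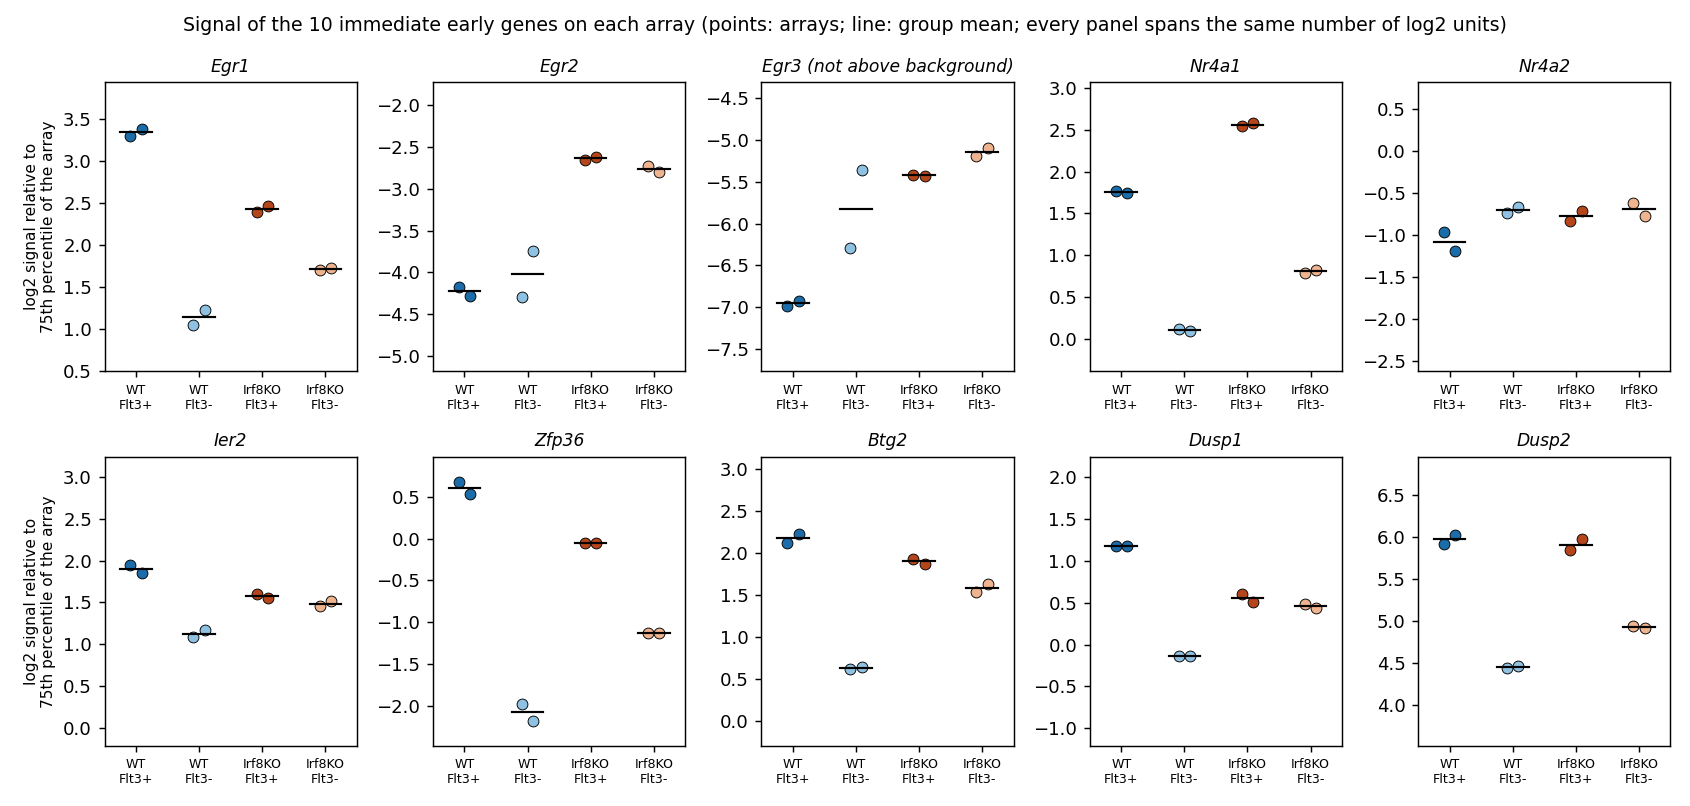
Signal of the 10 genes on the 8 arrays, as log2 intensity relative to each array's 75th percentile, with 1 point per array and a line at the group mean. Each panel spans the same number of log2 units on an axis of its own. Egr1, Ier2, Zfp36, Btg2, Dusp1 and Dusp2 have their highest group mean in WT Flt3+ and their lowest in WT Flt3- GPs, Nr4a1 its highest in Irf8KO Flt3+ GPs, and Egr3 lay near background on all 8.

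Among the EGR genes Egr1 had the widest range. It read 3.30 and 3.38 in WT Flt3+ GPs, 1.05 and 1.23 in WT Flt3- GPs, 2.40 and 2.47 in Irf8KO Flt3+ GPs and 1.70 and 1.73 in Irf8KO Flt3- GPs. No groups overlapped, and the Irf8KO groups lay between the wild-type ones. Egr1 was 4.60-fold higher in Flt3+ than in Flt3- GPs of wild type (2.20, SE 0.071, adjusted p = 5.52e-06) and 1.65-fold higher in Irf8KO (0.72, SE 0.071, adjusted p = 0.000489). Set against wild type, Irf8KO was 1.88-fold lower in Flt3+ GPs (-0.91, SE 0.071, adjusted p = 0.000566) and 1.49-fold higher in Flt3- GPs (0.57, SE 0.071, adjusted p = 0.002). Egr1 thus differed between the genotypes in opposite directions in the 2 populations, and the difference between those differences was -1.48 (SE 0.10, adjusted p = 0.00119).

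Egr2, the gene best known for nerve myelination and for limiting T cell activation, followed the genotype. Its signal was dim, with intensities of 21.0 to 66.9, though well above background on all 8 arrays. It read -4.17 and -4.28 in WT Flt3+ GPs, -4.29 and -3.74 in WT Flt3- GPs, -2.66 and -2.62 in Irf8KO Flt3+ GPs and -2.73 and -2.81 in Irf8KO Flt3- GPs. All 4 Irf8KO arrays read higher than all 4 wild-type arrays, and the wild-type populations overlapped. Egr2 was higher in Irf8KO Flt3+ GPs (1.59, SE 0.17, adjusted p = 0.00182) and 2.37-fold higher in Irf8KO Flt3- GPs (1.25, SE 0.17, adjusted p = 0.00269). With quantile normalization they were 1.64 and 1.22, and with normexp background correction and quantile normalization together 0.63 and 0.47, called in each case. Neither population difference of Egr2 passed the test, at -0.21 in wild type (95% interval -0.63 to 0.21, adjusted p = 0.326) and 0.13 in Irf8KO (95% interval -0.29 to 0.55, adjusted p = 0.567). Without WT Flt3- replicate 1 the wild-type one was -0.48 and called (adjusted p = 0.00564), and the difference between the populations in the genotype difference rose from 0.34 (SE 0.24, adjusted p = 0.334) to 0.61 and was called (adjusted p = 0.0221). Without WT Flt3- replicate 2 they were 0.06 (adjusted p = 0.524) and 0.07 (adjusted p = 0.674), neither called, so both values rest on which of these arrays is kept.

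Egr3 was not well above background on any of the 8 arrays, with intensities of 3.75 to 10.7, and has no fold change here.

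Nr4a1 differed by both population and genotype. It read 1.76 and 1.75 in WT Flt3+ GPs, 0.12 and 0.10 in WT Flt3- GPs, 2.54 and 2.58 in Irf8KO Flt3+ GPs and 0.79 and 0.83 in Irf8KO Flt3- GPs. No groups overlapped, and the Irf8KO Flt3+ arrays were highest. Nr4a1 was 3.13-fold higher in Flt3+ GPs of wild type (1.65, SE 0.040, adjusted p = 2.36e-06) and 3.36-fold higher in those of Irf8KO (1.75, SE 0.040, adjusted p = 2.59e-06). It was 1.74-fold higher on Irf8KO arrays in Flt3+ GPs (0.80, SE 0.040, adjusted p = 0.000112) and 1.63-fold higher in Flt3- GPs (0.70, SE 0.040, adjusted p = 0.000226). These genotype differences were not found to differ between the populations (0.10, 95% interval -0.04 to 0.24, adjusted p = 0.228).

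Nr4a2, best known as a factor of dopaminergic neurons, varied little. It read -0.97 and -1.20 in WT Flt3+ GPs, -0.74 and -0.67 in WT Flt3- GPs, -0.84 and -0.72 in Irf8KO Flt3+ GPs and -0.62 and -0.78 in Irf8KO Flt3- GPs. The WT Flt3+ arrays were lowest and the other groups overlapped. Nr4a2 was lower in WT Flt3+ than in WT Flt3- GPs (-0.38, SE 0.098, adjusted p = 0.0173), a call lost without WT Flt3+ replicate 2 (-0.27, adjusted p = 0.0673) or WT Flt3- replicate 2 (-0.34, adjusted p = 0.0806). A second Nr4a2 probe gave -0.52 (SE 0.13, adjusted p = 0.0229 over all probes). The difference between genotypes in Flt3+ GPs was 0.31 (SE 0.098, adjusted p = 0.0644), and it passed the test under normexp with quantile normalization (0.23, adjusted p = 0.0256) but not under quantile normalization alone (0.31, adjusted p = 0.0558). It also passed with only probes well above background on all arrays (0.31, adjusted p = 0.0474) and without WT Flt3+ replicate 1 (0.42, adjusted p = 0.0416), and was 0.20 without WT Flt3+ replicate 2 (adjusted p = 0.194). In Flt3- GPs it was 0.01 (95% interval -0.23 to 0.25, adjusted p = 0.954).

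Ier2, a nuclear protein gene that serves as a general mark of recent stimulation, read 1.94 and 1.85 in WT Flt3+ GPs, 1.09 and 1.17 in WT Flt3- GPs, 1.60 and 1.56 in Irf8KO Flt3+ GPs and 1.45 and 1.52 in Irf8KO Flt3- GPs. Its group means had the order of Egr1 over a narrower range. Ier2 was 1.70-fold higher in Flt3+ GPs of wild type (0.77, SE 0.057, adjusted p = 0.00012), while the difference in Irf8KO did not pass the test (0.09, 95% interval -0.05 to 0.23, adjusted p = 0.245). Irf8KO was lower in Flt3+ GPs (-0.32, SE 0.057, adjusted p = 0.0114), which was lost without Irf8KO Flt3+ replicate 2 (-0.30, adjusted p = 0.0696), and higher in Flt3- GPs (0.36, SE 0.057, adjusted p = 0.0047). The genotype difference in Flt3+ GPs minus that in Flt3- GPs was -0.68 (SE 0.081, adjusted p = 0.00389).

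Of the genes that act on mRNA decay, Zfp36 showed the highest population ratio of the 9 genes in wild type. It read 0.67 and 0.52 in WT Flt3+ GPs, -1.97 and -2.17 in WT Flt3- GPs, -0.06 on both Irf8KO Flt3+ arrays and -1.13 on both Irf8KO Flt3- arrays. No groups overlapped. Zfp36 was 6.36-fold higher in WT Flt3+ than in WT Flt3- GPs (2.67, SE 0.082, adjusted p = 4.93e-06) and 2.10-fold higher in Flt3+ GPs of Irf8KO (1.07, SE 0.082, adjusted p = 0.000175). Irf8KO lay 1.58-fold below wild type in Flt3+ GPs (-0.66, SE 0.082, adjusted p = 0.00317) and 1.92-fold above it in Flt3- GPs (0.94, SE 0.082, adjusted p = 0.0007). The genotype differences differed by -1.60 (SE 0.12, adjusted p = 0.0014).

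Btg2, an antiproliferative gene that is also a p53 target, read 2.12 and 2.23 in WT Flt3+ GPs, 0.62 and 0.64 in WT Flt3- GPs, 1.93 and 1.88 in Irf8KO Flt3+ GPs and 1.54 and 1.64 in Irf8KO Flt3- GPs. The WT Flt3- arrays stood well below the other 6. Btg2 was 2.92-fold higher in Flt3+ GPs of wild type (1.55, SE 0.058, adjusted p = 9.3e-06) and 1.24-fold higher in those of Irf8KO (0.32, SE 0.058, adjusted p = 0.00632). Irf8KO was 1.94-fold higher in Flt3- GPs (0.96, SE 0.058, adjusted p = 0.000272). It was lower in Flt3+ GPs by a small margin (-0.27, SE 0.058, adjusted p = 0.0194), and this call was lost with no filter on dim probes (adjusted p = 0.0515), in a fit of these groups alone (adjusted p = 0.0637), and without WT Flt3+ replicate 2 (-0.22, adjusted p = 0.0631), Irf8KO Flt3+ replicate 1 (-0.30, adjusted p = 0.062) or Irf8KO Flt3+ replicate 2 (-0.24, adjusted p = 0.105). The genotype difference in Flt3+ GPs minus that in Flt3- GPs was -1.23 (SE 0.082, adjusted p = 0.00119).

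Dusp1, the phosphatase of p38 and JNK that glucocorticoids also induce, read 1.17 on both WT Flt3+ arrays, -0.13 and -0.14 in WT Flt3- GPs, 0.60 and 0.51 in Irf8KO Flt3+ GPs and 0.49 and 0.43 in Irf8KO Flt3- GPs. The wild-type populations stood apart with the 4 Irf8KO arrays between them. Dusp1 was 2.48-fold higher in Flt3+ GPs of wild type (1.31, SE 0.047, adjusted p = 8.11e-06), and the difference in Irf8KO did not pass the test (0.10, 95% interval -0.02 to 0.21, adjusted p = 0.151). Irf8KO was 1.53-fold lower in Flt3+ GPs (-0.62, SE 0.047, adjusted p = 0.000533) and 1.51-fold higher in Flt3- GPs (0.60, SE 0.047, adjusted p = 0.000536). The genotype difference in Flt3+ GPs minus that in Flt3- GPs was -1.21 (SE 0.067, adjusted p = 0.000687).

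Dusp2 (PAC-1), a nuclear phosphatase of haematopoietic cells, read 5.92 and 6.03 in WT Flt3+ GPs, 4.44 and 4.46 in WT Flt3- GPs, 5.84 and 5.98 in Irf8KO Flt3+ GPs and 4.94 and 4.92 in Irf8KO Flt3- GPs. The Flt3+ groups overlapped. Dusp2 was 2.88-fold higher in Flt3+ GPs of wild type (1.52, SE 0.064, adjusted p = 1.4e-05) and 1.97-fold higher in those of Irf8KO (0.98, SE 0.064, adjusted p = 9.09e-05). Irf8KO was higher in Flt3- GPs (0.48, SE 0.064, adjusted p = 0.00252). In Flt3+ GPs the genotypes did not pass the test (-0.06, 95% interval -0.22 to 0.09, adjusted p = 0.491), except, among the alternatives run, under quantile normalization (-0.19, adjusted p = 0.0452). The genotype difference in Flt3+ GPs minus that in Flt3- GPs was -0.54 (SE 0.090, adjusted p = 0.00925). It was -0.81 under quantile normalization and -0.82 under normexp with quantile normalization, called in each.

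**Figure D3:**
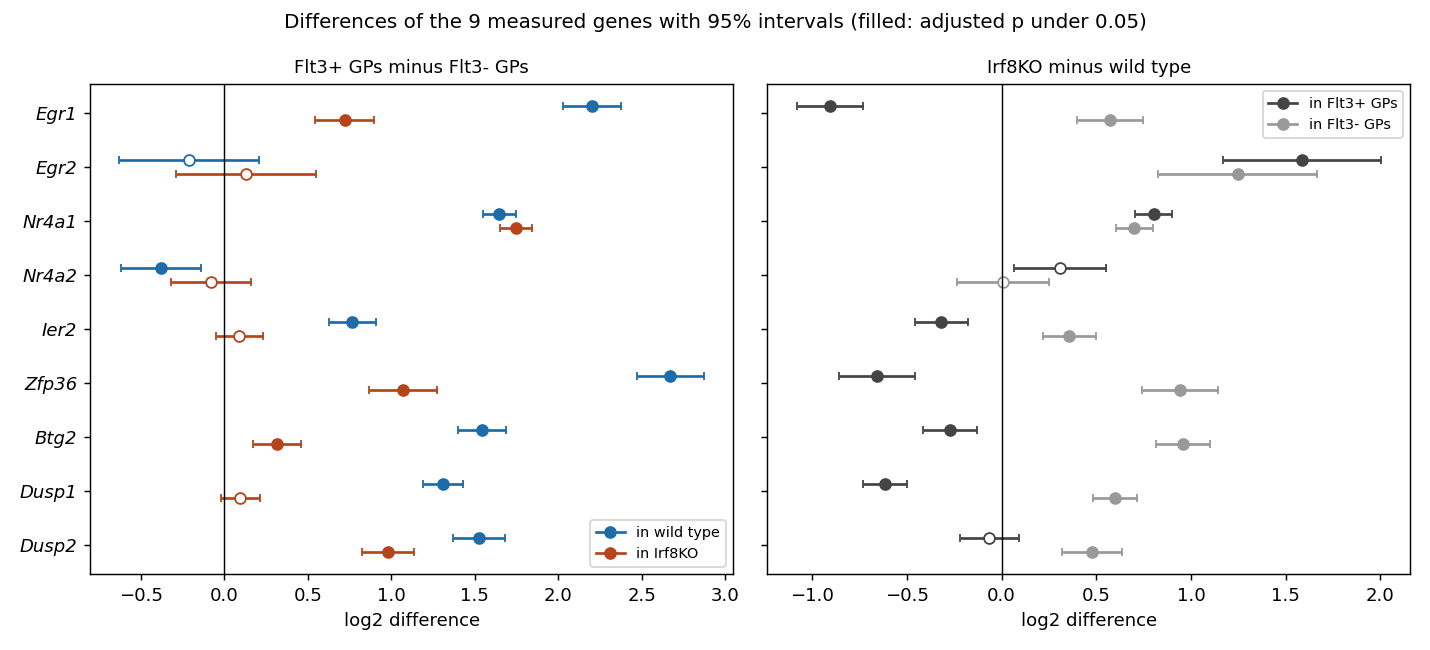
Log2 differences of the 9 measured genes, with 95% intervals from limma, for Flt3+ minus Flt3- GPs in each genotype (left) and Irf8KO minus wild type in each population (right). Filled points passed an adjusted p of 0.05. Egr1 moves from 2.20 in wild type to 0.72 in Irf8KO on the left, and from -0.91 in Flt3+ to 0.57 in Flt3- GPs on the right, while Nr4a1 stays above 0 in all 4.

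In the comparison of wild-type populations, which asks how Flt3+ and Flt3- GPs differ, Egr1, Nr4a1, Ier2, Zfp36, Btg2, Dusp1 and Dusp2 were higher in Flt3+ GPs, Nr4a2 was lower, and Egr2 did not pass the test. So 8 of the 9 measured genes were called, against 61.9% of all 14104 genes tested, with 7 higher, against 22.6%, and 1 lower, against 39.2%. The median over the 9 was 1.52, beside -0.12 over all genes. Quantile normalization took the median of all genes to -0.01 and that of the 9 to 1.65, and the all-gene split of 3192 higher and 5534 lower became 4196 and 4122.

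Of the 20 measured relatives from the same families 15 were higher in WT Flt3+ GPs and 1 was lower (median 0.90), with Egr4 at least 1.58-fold and Dusp4 at least 2.22-fold higher. Both were not well above background in WT Flt3- GPs, so the folds are lower bounds against the dimmest signal that counts as above background. Dusp9 was lower (-0.24). Of the 6 measured AP-1 genes, which encode the Fos and Jun partners of the same response, 5 were higher and 1 lower (median 1.27), with Fosb at 1.69, Fos at 1.49 and Fosl2 at -0.40. Of 29 other immediate early genes 15 were higher and 8 lower (median 0.34). Klf2, a factor of quiescent lymphocytes, stood at 2.65 and Socs3, a feedback inhibitor of cytokine receptors, at 1.80, while Id1 (-2.57) and Sgk1 (-1.53) were lower.

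Genes of the upstream kinases were described in the same way. Over all genes tested, 22.6% were higher and 39.2% lower in this comparison, with a median of -0.12. Of 28 genes of the RAS-ERK and stress kinase pathway 2 were higher and 17 lower in WT Flt3+ GPs (median -0.26), with Spry1, a feedback inhibitor, at 0.63 and the kinases Rps6ka1 and Mapkapk2 both at -0.60. Of 15 serum response factor, ternary complex, CREB and MEF2 genes 7 were higher and 3 lower (median 0.07), with Mef2c at 1.57, Crem at 1.02 and Srf at -0.60. Nab2, a corepressor that binds EGR proteins and is itself an EGR target, was the 1 gene called of 5 EGR corepressors and NR4A partners (0.65, SE 0.044). Of 18 genes of the CCR4-NOT complex and its partners 2 were higher and 7 lower (median -0.12), so the share lower and the median lay near those of all genes.

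Among 9 measured mRNAs described as ZFP36 targets 5 were higher and 2 lower (median 0.94), with the chemokine gene Ccl3 at 4.21, Tnf at 1.32 and Vegfa at -2.29. Of 11 measured heat shock genes 9 were lower in WT Flt3+ GPs and 1 was higher (median -0.45), with Hspa5, the chaperone of the endoplasmic reticulum, at -1.40, the inducible Hspa1a at -1.16 and Dnajb1 at 0.19.

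In Flt3+ GPs, where the comparison asks how the genotypes differ, Irf8KO was higher for Egr2 and Nr4a1 and lower for Egr1, Ier2, Zfp36, Btg2 and Dusp1. That is 7 of 9 called, against 29.0% of all genes, with 2 higher, against 16.5%, and 5 lower, against 12.5%. The median was -0.27, beside 0.04 over all genes. Of the all-gene calls 2326 were higher and 1766 lower, and under normexp with quantile normalization 2010 and 2331. Without Irf8KO Flt3+ replicate 2 the members called fell to 5 and the all-gene count to 2002, and without Irf8KO Flt3+ replicate 1 they were 6 and 2184.

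For the lists in this comparison, the shares over all genes tested were 16.5% higher and 12.5% lower. Of the 20 relatives 2 were higher and 4 lower (median -0.02), with Dusp6, the ERK phosphatase, at 1.19 and Dusp16 at -0.86. Of 6 AP-1 genes 1 was higher and 4 lower (median -0.35), with Fosl2 at 1.52, Fosb at -1.23 and Jun at -0.57. Of 29 other immediate early genes 11 were higher and 7 lower (median -0.04). Nab2 was lower (-0.27, SE 0.044). In the kinase list 4 of 28 were higher and 2 lower, with Spry1 at 0.59 and Rps6ka3 at -0.67, and in the list of serum response and CREB factors 3 of 15 were higher and 1 lower, with Crem at 1.17 and Mef2d at -0.59. Of the 9 ZFP36 target mRNAs 4 were higher and 4 lower, with Vegfa at 2.06 and Ccl3 at -0.62. Of 11 heat shock genes 5 were higher and the rest not called, with Hspa1a at 1.74.

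In Flt3- GPs the same comparison of genotypes gave 8 of 9 genes called, against 43.7% of all genes, with 8 higher on Irf8KO arrays, against 16.5%, and none lower, against 27.2%, also at an unadjusted limma p under 0.05. Only Nr4a2 was not called. The median was 0.60, beside -0.03 over all genes. Of 6 AP-1 genes 6 were higher (median 0.47), with Fosl2 at 1.14 and Fos at 0.93. Of the 20 relatives 7 were higher and 4 lower (median 0.14), with Btg1 at 0.71 and Dusp3 at -1.19, and of 29 other immediate early genes 11 were higher and 4 lower (median 0.12), with the growth arrest gene Gadd45g at 1.50 and Plk3 at -0.58. In the kinase list 2 of 28 were higher and 6 lower, with the ERK pathway inhibitor Spred2 at -1.10. In the list of serum response and CREB factors 4 of 15 were higher and 3 lower, of the 9 ZFP36 target mRNAs 4 were higher and 1 lower, with Ccl3 at 1.69, and of 11 heat shock genes 1 was higher and 5 lower.

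Between the Irf8KO populations 5 of 9 genes were called, against 45.8% of all genes, with 5 higher in Flt3+ GPs, against 22.1%, and none lower, against 23.6%, also at an unadjusted limma p under 0.05. They were Nr4a1, Zfp36, Dusp2, Egr1 and Btg2, and the median over the 9 was 0.32, beside -0.03 over all genes. Of the 20 relatives 16 were higher and 3 lower (median 0.79), with Dusp5 at 2.56 and Btg1 at -0.67, and of 6 AP-1 genes 3 were higher and the rest not called (median 0.24). Of 29 other immediate early genes 17 were higher and 6 lower (median 0.26), with Klf2 at 2.33 and Gadd45g at -2.29.

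The comparisons share arrays, so their values are set side by side and not counted as separate support. The test that bears on whether the genotype difference depends on the population called 6 of the 9 genes, against 30.9% of all genes, with 6 lower, against 9.46%, and none higher, against 21.4%, also at an unadjusted limma p under 0.05. These were Zfp36, Egr1, Btg2, Dusp1, Ier2 and Dusp2, and the median over the 9 was -0.68, beside 0.07 over all genes. The all-gene split was 3023 higher and 1334 lower, and 1976 and 1870 under quantile normalization. Equally, these 6 genes differed less between the populations in Irf8KO than in wild type. In the lists, 1 of 6 AP-1 genes was higher and 5 lower (median -0.90), with Fosb at -1.58 and Fos at -1.22, and of the 20 relatives 3 were higher and 6 lower (median -0.17), with Tob1 at -0.93 and Ier3 at -0.71. Of 29 other immediate early genes 5 were higher and 9 lower (median -0.20), and of 11 heat shock genes 7 were higher and the rest not called (median 0.54), with Hspa1a at 1.15 and Hspd1 at 0.75.

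**Figure D4:**
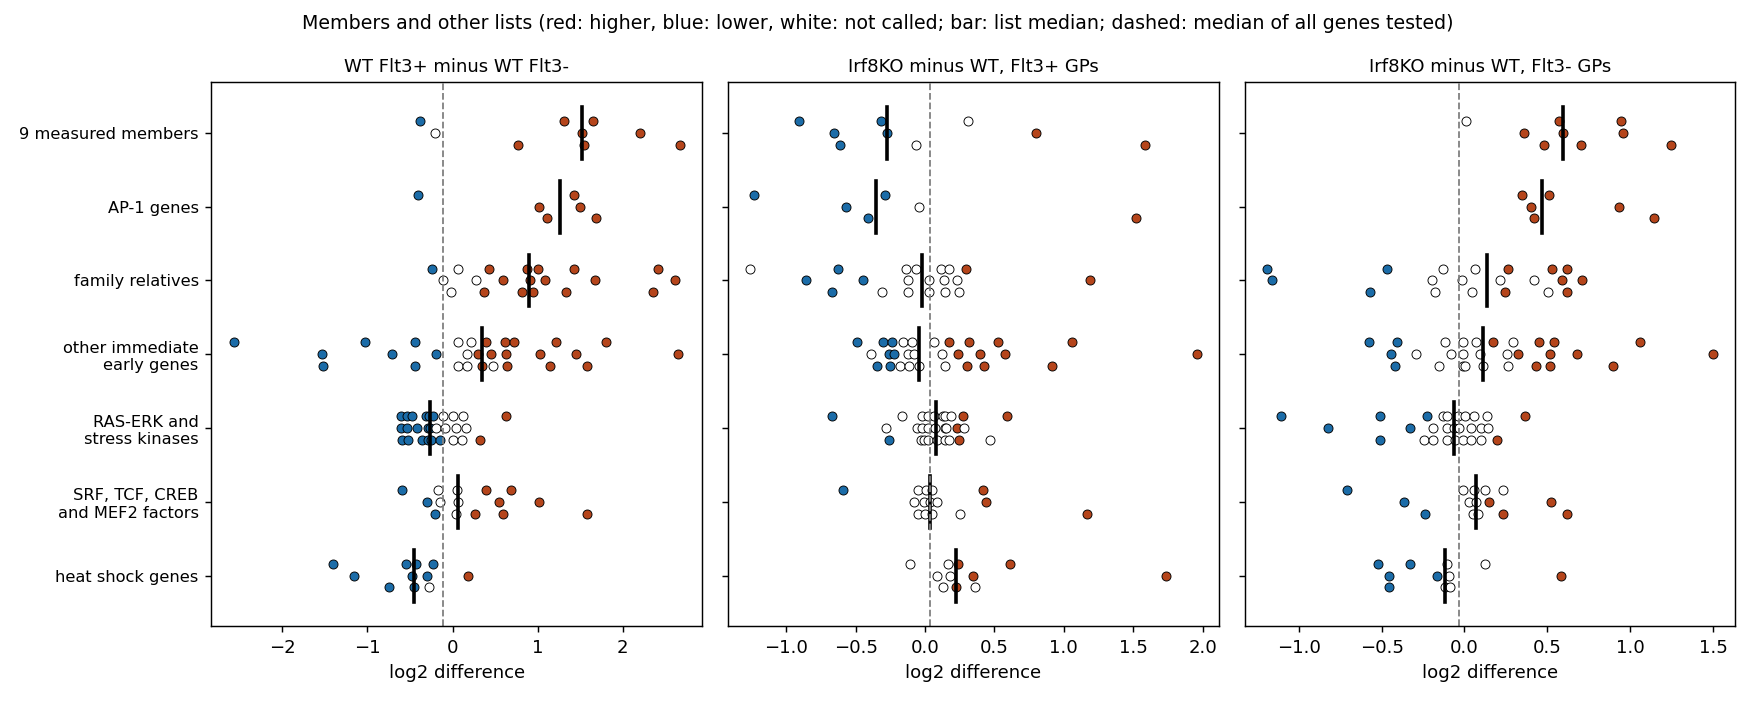
Log2 differences of the members and of 6 other gene lists in 3 comparisons, with 1 point per gene, red for higher, blue for lower and white for not called. Bars are list medians and dashed lines the median of all genes tested. The members and the AP-1 genes have medians of 1.52 and 1.27 between the wild-type populations, -0.27 and -0.35 between genotypes in the Flt3+ and 0.60 and 0.47 in the Flt3- population, and heat shock genes -0.45, 0.22 and -0.12.

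Over the 8 arrays the 6 genes whose group means had the order of Egr1 correlated with one another at 0.86 to 0.99, as a description over arrays that fall into 4 groups and share the scaling of each array. These 6 genes were picked by their shared order on the same arrays, so high correlations among them follow from the choice. Nr4a1 correlated with Egr1 at 0.76 and with Dusp2 at 0.94, and Nr4a2 with Egr1 at -0.81. Egr2 correlated with Egr1 at -0.17. Among the 3618 other genes with a range of at least 1 log2 unit, those most like Egr1 were Zfp467, Ddit4, Abcg1, Jun and Ier3, at 0.997 to 0.992. Ddit4 encodes an inhibitor of mTOR complex activity and Abcg1 a cholesterol exporter. Ddit4 had group means of 3.62 in WT Flt3+, 2.10 in WT Flt3-, 3.02 in Irf8KO Flt3+ and 2.58 in Irf8KO Flt3- GPs. The genes most like the mean profile of the members were Slfn8, Eps8, Trp53inp1, Ggt5 and Map3k8, at 0.998 to 0.996. Map3k8 (Tpl2), a kinase upstream of ERK in myeloid cells, had means of -1.20, -3.19, -1.27 and -2.25 in the same order.

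The 10 genes are short, with a median genomic span of 4020.5 bases and 80.0% under 10000 bases, against 20558.5 bases and 29.3% for all genes tested.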

How the data were processed

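Values of 8 one-colour Agilent arrays, 2 per group, were analysed, and groups and experiment numbers came from the sample titles. Per the labels' protocols, total RNA was purified on micro columns and labelled after low-input amplification, and amplification of little RNA can change ratios. Per the file headers, the deposited intensities are the background-subtracted output of Agilent Feature Extraction 10.7.3.1, on a linear scale and unscaled between arrays. Deposited flags of 0 or 1 marked saturated spots, outliers and spots well above background. The deposited series table, judged from its values, holds the same intensities multiplied by 1 factor for each array (0.672 to 1.33), linear and not centred, with column medians of 29.9, 28.7, 26.9, 28.0, 28.7, 27.1, 27.5 and 27.6, and served as an alternative only.

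Control spots and outlier spots (93 to 178 per array) were removed, spots of a probe averaged, and log2 intensity taken minus the 75th percentile of the array (321 to 634). Probes were named through RefSeq accessions (GRCm38.p6), which named 26762 probes and left 28919 unnamed here. A probe was kept if well above background on both arrays of a group, and the probe with the highest mean stood for a gene. This left 14104 genes. One mean per group was fitted to all arrays in limma 3.58.1 under R 4.3.3, with Benjamini-Hochberg adjustment over all genes in each comparison and calls at an adjusted p under 0.05. The procedure was tested on simulated data for the wild-type populations, with 50 of 14104 genes changed at each of 4 sizes. It recovered 26%, 80%, 82% and 92% of changes of 0.3, 0.6, 1 and 2 log2 units. Far fewer genes changed there than were called in these data, so these shares need not hold here. The number of arrays limits the precision.

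The members and gene lists were chosen with earlier results of these data known. All members are named, up to 4 genes per list and comparison (the most and least changed among those called), and the 5 genes most like Egr1 and most like the mean of the members. The lists of ZFP36 targets, relatives and other immediate early genes share some genes. Alternatives covered scaling, background correction, the filter, the choice of probe, the series table, the groups fitted, a block for experiment number, and leaving out each array. The values of 2 genes of the marker lists are not reported here.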

Additional observations from a re-analysis of the deposited data

Results flagged for a closer look

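For 6 genes the difference between genotypes depended on the population by a test of that difference itself, the interaction term of the limma fit. The values, as the genotype difference in Flt3+ GPs minus that in Flt3- GPs, were -1.48 for Egr1, -0.68 for Ier2, -1.60 for Zfp36, -1.23 for Btg2, -1.21 for Dusp1 and -0.54 for Dusp2. Egr1, Ier2, Zfp36, Btg2 and Dusp1 were called lower in Irf8KO Flt3+ GPs and higher in Irf8KO Flt3- GPs. Dusp2 was called in Flt3- GPs, and its difference in Flt3+ GPs did not pass the test.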

How the results depend on the processing

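In this section the difference between populations is short for the interaction term, the genotype difference in Flt3+ GPs minus that in Flt3- GPs. No value of the 9 genes turned its direction while called, in any of 5 comparisons. In Irf8KO against wild type in Flt3- GPs and between the Irf8KO populations, all 153 values per comparison kept their side of the threshold, as did 150 of 153 between the wild-type populations, 143 of 153 in Flt3+ GPs and 143 of 144 for the difference between populations. The exceptions concern Egr2, Nr4a2, Ier2, Btg2 and Dusp2 and are given beside those genes. The members called ranged from 7 to 9 between the wild-type populations, from 5 to 8 in Irf8KO against wild type in Flt3+ GPs and from 6 to 7 for the difference between populations. Deviations of same-numbered arrays correlated at -0.03 to 0.13 over 6 pairs of groups. These values cannot tell whether same-numbered samples were prepared together, and the sources used here do not state it. With the experiment as a replicate block the members called were 8, 7, 8, 5 and 6, as without it. Over all genes, the genotype count in Flt3+ GPs was 4092, and 2679 with no filter on dim probes or 2676 in a fit of those groups alone; in Flt3- GPs it was 6159, and 4063 without WT Flt3- replicate 2; for the difference between populations it was 4357, and 2725 with no filter and 2515 to 2902 without WT Flt3- or Irf8KO Flt3+ arrays. Counts within the lists moved by over 1.5 times in 81 of 756 alternatives. Signal over background limits Egr2, and Egr3 altogether.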
